A study of Mus musculus with 31 samples.

Results

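The hippocampus 8 days after neuronal delivery of ovalbumin was compared here with the hippocampus 8 days after a control vector. The comparison holds 7 of the 31 mice of the study, namely the 4 mice labelled rAAV-hSyn-OVA-mCherry at 8 d (rAAV-OVA, mice D700, D701, D702 and D703) and the 3 labelled rAAV-hSyn-mCherry at 8 d (rAAV-control, mice D696, D720 and D722). All 7 carry the genotype OT-I/Rag-/- and stand in batch 1 of the labels. OT-I mice express 1 transgenic T cell receptor on CD8+ T cells, which recognises an ovalbumin peptide presented by an MHC class I molecule, and without Rag1 they form no other mature T cells and no B cells. Both vectors were injected into the dorsal CA1 region of both hemispheres of adult mice, the hSyn promoter restricts the transgene to neurons, and every mouse received ketoprofen as analgesic. mRNA of the left hippocampus was sequenced, so that 1 library stands for 1 mouse. The question of the comparison is which genes differ once T cells can meet their antigen in neurons. The transgene transcripts were not analysed here, so the vector named in a label could not be checked by its own RNA.

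CD8+ T cells that meet peptide on MHC class I release interferon-gamma, TNF and cytolytic granules. Interferon-gamma acts through JAK kinases and STAT proteins on microglia, astrocytes, endothelial cells and neurons, where it raises MHC genes, guanylate-binding proteins and chemokines that attract further T cells. Type I interferons act through STAT2 and IRF9 on an overlapping set of genes, so that many of these genes answer to both.

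The 7 libraries held between 19046977 and 32112818 counts, and no pair of mice within a group was as similar as counting noise would give. Levels are given below as TMM-normalised counts per 1000000 (CPM), and Log2FC is the difference of rAAV-OVA minus rAAV-control in the edgeR quasi-likelihood model with 2 surrogate variables, with its Benjamini-Hochberg FDR. The standard error (SE) was derived as the absolute Log2FC over the square root of the F statistic of that model's test. Genes that met FDR ≤ 0.05 with |Log2FC| ≥ 0.66 are called differentially expressed (DEGs). Control mouse D720 stood apart from D696 and D722. Its summed CPM over the interferon-gamma response genes was 2500, against 128 in D696 and 472 in D722, and the 12 rAAV-control mice of the other days ran from 71.9 to 558. The tests and the counts of DEGs were therefore also computed without D720, but the promoter counts and the order of the mice were not. For genes raised in D720, larger differences without it follow from this choice.

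Of 15648 genes, 1548 were DEGs (9.89%), of which 1459 were increased (9.32% of the genes tested) and 89 decreased (0.569%). Without D720, 1677 were DEGs (10.7%), of which 1540 were increased (9.84%) and 137 were decreased (0.876%). The decreased DEGs numbered 12 without D722, 32 without D700, 55 without D703, 129 without D701 and 133 without D696. The shared DEGs numbered 1324 increased and 58 decreased, and 0 genes were called in opposite directions. All 4 rAAV-OVA mice lay above all 3 controls for 1106 of the increased DEGs and below them for 61 of the decreased DEGs. Among all genes, 14.4% were higher without overlap and 11.9% lower without overlap. The count also moved with another control mouse and with the mice in the model. Without D722, which leaves D720 and D696 as controls, 422 genes were called, and a fit of only the 7 mice without covariates called 0 (lowest FDR 0.0588, 4733 genes at an unadjusted p under 0.05) but 2117 once D720 was left out. Among the increased DEGs, D720 was the highest control for 89%, compared with 35.7% of all genes tested. It fell within the range of the rAAV-OVA mice for 23.2%, compared with 45.8% of all genes tested. The rAAV-OVA mice also differed among themselves, since D700 was the highest of the 4 for 1284 and D701 the lowest for 1309 of the 1459 increased DEGs. Over all 15648 genes these numbers were 5964 and 5757. The first surrogate variable was estimated from the same counts and was -0.22 in D700, -0.18 in D703, 0.26 in D701 and -0.29 in D720.

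**Figure D1:**
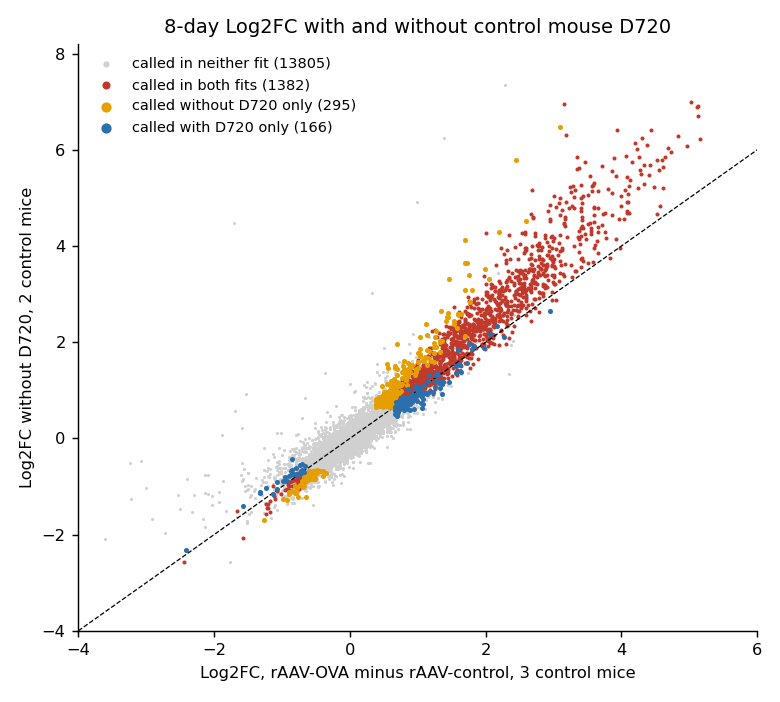
Log2FC of each gene (rAAV-OVA minus rAAV-control at 8 d) with all 3 control mice (horizontal axis) and without D720 (vertical axis), coloured by the fits in which the gene was a DEG, with 6 genes outside the axes. Points above the dashed line of equality, where most increased DEGs lie, had a larger increase without D720.

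T cell genes were among the largest increases. Of the 21 genes listed for the T cell receptor and CD8, 9 were in the table and 9 were increased, with a median Log2FC of 3.77 compared with -0.03 over all genes tested, and all 9 were increased without D720. The count was 8 without D700 and 7 without D722. Cd3e, Cd3g, Cd8b1 and Cd4 were among those not tested. Only genes with 15 counts in 15 or more of the 31 mice were kept. A gene low in controls could pass mainly through rAAV-OVA mice in which it was high, so 9 of 9 is partly set by that filter. Cd8a, the CD8 alpha chain, was 163, 52.0, 77.6 and 135 CPM in D700 to D703 and 1.09, 9.73 and 0.517 CPM in D696, D720 and D722 (Log2FC 5.15, SE 0.64, FDR 9.0e-05). The groups did not overlap, and D720 was higher than the other controls and than all rAAV-control mice of other days, whose highest value was 1.35 CPM. Trbc2, a constant region of the T cell receptor beta chain, was 360, 106, 146 and 232 CPM after rAAV-OVA and 2.59, 23.5 and 1.95 CPM in the controls (Log2FC 4.59, SE 0.63, FDR 1.1e-04). Trbv12-1, a variable gene of that chain, rose with it (Log2FC 4.61, FDR 9.3e-05), although reads of near-identical variable genes could be split between them. Ptpn7, a phosphatase of blood cells, ran from 7.24 to 19.4 CPM after rAAV-OVA and from 0.0835 to 1.39 CPM in controls (Log2FC 5.13, SE 0.62, FDR 5.8e-05). Lck, the kinase at the start of T cell receptor signalling, shared the lowest FDR with Rab27a and Prkch (Log2FC 3.77, SE 0.42, FDR 4.5e-05), with 66.5, 23.6, 31.5 and 52.5 CPM against 1.29, 6.32 and 1.67 CPM. For Cd8a, Trbc2, Trbv12-1, Ptpn7 and Lck, D700 was the highest mouse and D701 the lowest of the rAAV-OVA group. Zap70, another kinase of the pathway, rose by Log2FC 2.34. Other lymphocyte genes among the 15 largest increases were Gpr171, a G protein-coupled receptor of T cells, Zc3h12d of the regnase family and Ptprcap, a partner of CD45, all between Log2FC 4.55 and 5.02. Among the 10 genes of lowest FDR were also Prkch, protein kinase C eta (Log2FC 2.85), Vdr, the vitamin D receptor (4.25), Nt5e, the ectonucleotidase CD73 (2.31), Gimap4, a GTPase of lymphocytes (4.10), and Nampt, an enzyme of NAD synthesis (0.87). In bulk tissue, more cells of a type and more RNA per cell cannot be told apart.

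The genes of activated and cytolytic T cells followed. Of 22 listed effector genes 11 were tested, and Ifng, Prf1, Fasl and Tbx21 were not among them. Of the 11, 10 were increased (median Log2FC 4.08, and 5.06 without D720), and 8 did so without overlap between the groups. The filter named for the T cell receptor genes bears on this share too. The count was 9 without D696 and 7 without D722. Gzmb, a granzyme of cytolytic granules, was 39.6, 14.5, 17.5 and 25.5 CPM after rAAV-OVA and 0.334, 8.11 and 0.676 CPM in the controls (Log2FC 3.51, SE 0.73, FDR 0.0022). Rab27a, which brings such granules to the membrane, rose less steeply but evenly, from 6.56 to 12.1 CPM in controls and from 20.3 to 33.4 CPM after rAAV-OVA (Log2FC 1.51, SE 0.18, FDR 4.5e-05). The receptor chains of interleukin-2 rose together, with Il2rb at Log2FC 4.41 and Il2ra at 4.08. Xcl1, a chemokine made by activated CD8+ T cells, was at 30.7 to 96.8 CPM against 0.239 to 6.90 CPM (Log2FC 4.83, SE 0.65, FDR 1.1e-04). Irf4, a transcription factor of stimulated lymphocytes, and Klrk1, the activating receptor NKG2D, rose by 4.57 and 4.42. Gzma overlapped between the groups, because D720 at 4.53 CPM lay above D701 at 3.66 CPM, and was called (Log2FC 2.69, FDR 0.00259). Among 9 checkpoint and costimulation genes, 7 were increased, and 9 without D720 but 3 without D696 and 1 without D722. Tnfrsf9, the costimulatory receptor 4-1BB, had a Log2FC of 4.13, and Cd274, which encodes the inhibitory ligand PD-L1, was 51.4 to 115 CPM after rAAV-OVA against 2.92, 54.0 and 10.6 CPM (Log2FC 2.77, SE 0.63, FDR 0.00429), with D720 inside the rAAV-OVA range.

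**Figure D2:**
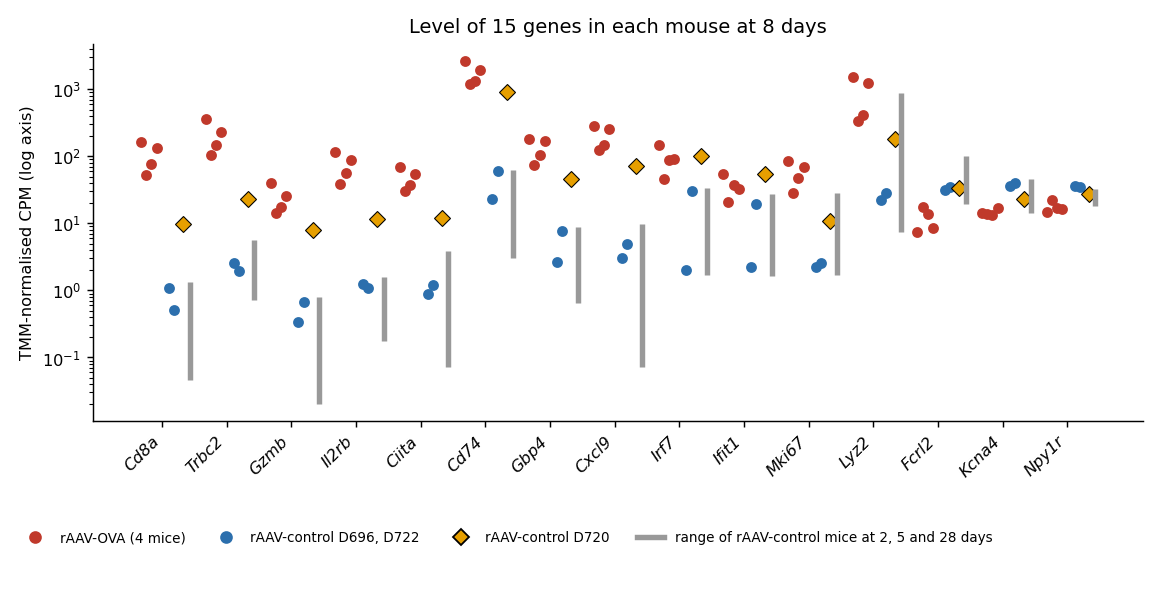
TMM-normalised CPM (log axis) of 15 genes in each mouse at 8 d, with the 4 rAAV-OVA mice, controls D696 and D722, control D720 as a diamond, and the range of the 12 rAAV-control mice of other days as a grey bar, drawn from 0.02 CPM upward. D720 lay between the groups for Cd8a (9.73 CPM), within the rAAV-OVA range for Ifit1 (53.9 CPM) and beside the other controls for Fcrl2 (33.5 CPM).

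Proliferation genes rose together. All 26 tested genes of the cell cycle and DNA replication were increased and all 26 were higher in every rAAV-OVA mouse than in every control, with and without D720 (median Log2FC 2.55 and 2.99). Leaving out any other single mouse of the 7 left 25 or 26 called. Mki67, a marker of dividing cells, was 84.1, 28.8, 46.9 and 68.5 CPM after rAAV-OVA and 2.21, 10.8 and 2.59 CPM in the controls (Log2FC 3.71, SE 0.55, FDR 1.8e-04). Top2a, the topoisomerase of chromosome segregation, behaved alike (Log2FC 3.37, FDR 1.9e-04), and Cdk1, the mitotic kinase, rose by 2.67. Pcna, the replication clamp, had the smallest change of the list (Log2FC 0.67, FDR 0.00674). Cenpf, a kinetochore protein, was among the 10 genes of lowest FDR (Log2FC 2.38, FDR 9.3e-05). The summed level of the list was 375 to 898 CPM after rAAV-OVA and 117, 267 and 142 CPM in D696, D720 and D722. Here D720 was inside the range of the rAAV-control mice of other days, which was 124 to 354 CPM.

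Antigen presentation rose in both classes. All 20 tested genes of MHC class I and peptide loading were increased, with a median Log2FC of 2.07 that became 3.17 without D720. For 13 of these 20 genes D720 lay within the rAAV-OVA range (45.8% of all genes), and 7 were higher without overlap (14.4% of all genes). These class I genes were raised in D720 (median log2 over the other controls 2.76), as were the class II genes below (3.04). D720 was chosen for its raised interferon genes, so the shifts of both lists without it describe that choice. H2-K1, a classical class I heavy chain, was 1400, 563, 759 and 909 CPM after rAAV-OVA and 27.7, 646 and 91.5 CPM in the controls (Log2FC 2.36, SE 0.64, FDR 0.0128, and 3.74 without D720 with FDR 5.7e-04). B2m, the light chain, showed the same pattern, with 1220 CPM in D720 and at least 1020 CPM in each rAAV-OVA mouse. Nlrc5, the transactivator of class I genes, was higher without overlap, at 37.2 to 91.8 CPM against 1.42, 26 and 5.57 CPM (Log2FC 3.37, SE 0.68, FDR 0.00163). Tap1, which carries peptides into the endoplasmic reticulum, and Psmb9, a subunit of the immunoproteasome, rose by 2.58 and 2.64. All 11 class II genes were increased (median Log2FC 3.26, and 4.91 without D720), and 10 of them did not overlap. Ciita, the class II transactivator, was 69.1, 30.6, 37.9 and 55.3 CPM against 0.877, 12.1 and 1.19 CPM (Log2FC 4.11, SE 0.70, FDR 4.7e-04). Cd74, the invariant chain, was 2640, 1190, 1340 and 1920 CPM against 23.3, 916 and 60.1 CPM (Log2FC 3.26, SE 0.93, FDR 0.018, and 5.12 without D720 with FDR 0.00168). Without D722 the increased genes numbered 3 of 20 for class I and 5 of 11 for class II, and without D696 13 of 20 for class I.

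All 23 tested genes of the interferon-gamma response were increased, with a median Log2FC of 2.80 (3.64 without D720), and 18 of the 23 did not overlap between the groups. Since D720 was set apart by this sum, the shift without it describes that choice. Irf1, a transcription factor induced by the interferons, was 176, 78.4, 118 and 158 CPM after rAAV-OVA and 6.72, 60.4 and 12.8 CPM in the controls (Log2FC 2.71, SE 0.54, FDR 0.00151). D696 was lowest, D722 higher and D720 closest to the lowest rAAV-OVA mouse. Gbp4, a guanylate-binding protein, ran from 75.1 to 180 CPM against 2.63, 46.8 and 7.84 CPM (Log2FC 3.40, SE 0.76, FDR 0.0037). Cxcl9, a ligand of the receptor CXCR3 on activated T cells, ran from 124 to 281 CPM against 3.05, 72.7 and 4.85 CPM (Log2FC 3.65, SE 0.88, FDR 0.00635). Cxcl10, its relative, overlapped through D720 at 84.3 CPM (Log2FC 2.67, FDR 0.0353). Nos2, the inducible nitric oxide synthase, was 60.6, 16.7, 30.8 and 39.3 CPM, with D720 at 4.44 CPM (Log2FC 4.11, SE 0.58, FDR 1.2e-04). Socs1 and Socs3, feedback inhibitors of JAK kinases, rose by 2.67 and 2.76, and of 16 genes for interferon receptors and JAK-STAT members 12 were increased, among them Ifngr1 (Log2FC 1.13), Jak2 (1.00) and Stat4 (4.05). The count of increased interferon-gamma genes was 11 without D701, 9 without D696 and 3 without D722, and that of the receptors and JAK-STAT members was 4 without D722.

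D720 was set apart because of its raised interferon genes, so the values of the type I interferon list with and without it describe that choice and are no independent result. Of 32 genes tested, 10 were increased with all controls and 19 without D720, and the median Log2FC was 1.32 and 2.06. All 32 had a positive Log2FC, yet 0 of 32 were higher without overlap as long as D720 was kept, and all 32 were once it was left out (24.8% of all genes). D720 was the highest control for all 32 genes (35.7% of all genes). It lay at or above the lowest rAAV-OVA mouse for all 32, and did so for 10903 of all 15648 genes tested. Irf7, the regulator that amplifies type I interferon, was 147, 46.3, 87.9 and 90.7 CPM after rAAV-OVA and 2.00, 101 and 30.3 CPM in the controls, with a Log2FC of 1.58 (SE 0.67) that was not called at FDR 0.101 and of 2.30 that was called at FDR 0.0456 without D720. Ifit1, an antiviral RNA-binding protein, was 54.9, 21.2, 36.9 and 32.3 CPM against 2.26, 53.9 and 19.6 CPM, and was called neither with D720 (Log2FC 0.81, FDR 0.415) nor without it (1.42, FDR 0.223). Isg15, a ubiquitin-like protein, was likewise not called in either fit (FDR 0.196 and 0.093). The members that were called with all controls included Zbp1, a sensor of nucleic acids (Log2FC 2.66, FDR 0.0124), Parp14 (2.21, FDR 0.0072), Stat2 (1.30, FDR 0.00662) and Irf9 (1.15, FDR 0.0326). The count rested on single mice, since 4 were increased without D700, 1 without D701, 4 without D702, 1 without D696 and 0 without D722. Leaving out D696 also turned Ifit1 and Ifit3 slightly negative (Log2FC -0.14 and -0.06).

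**Figure D3:**
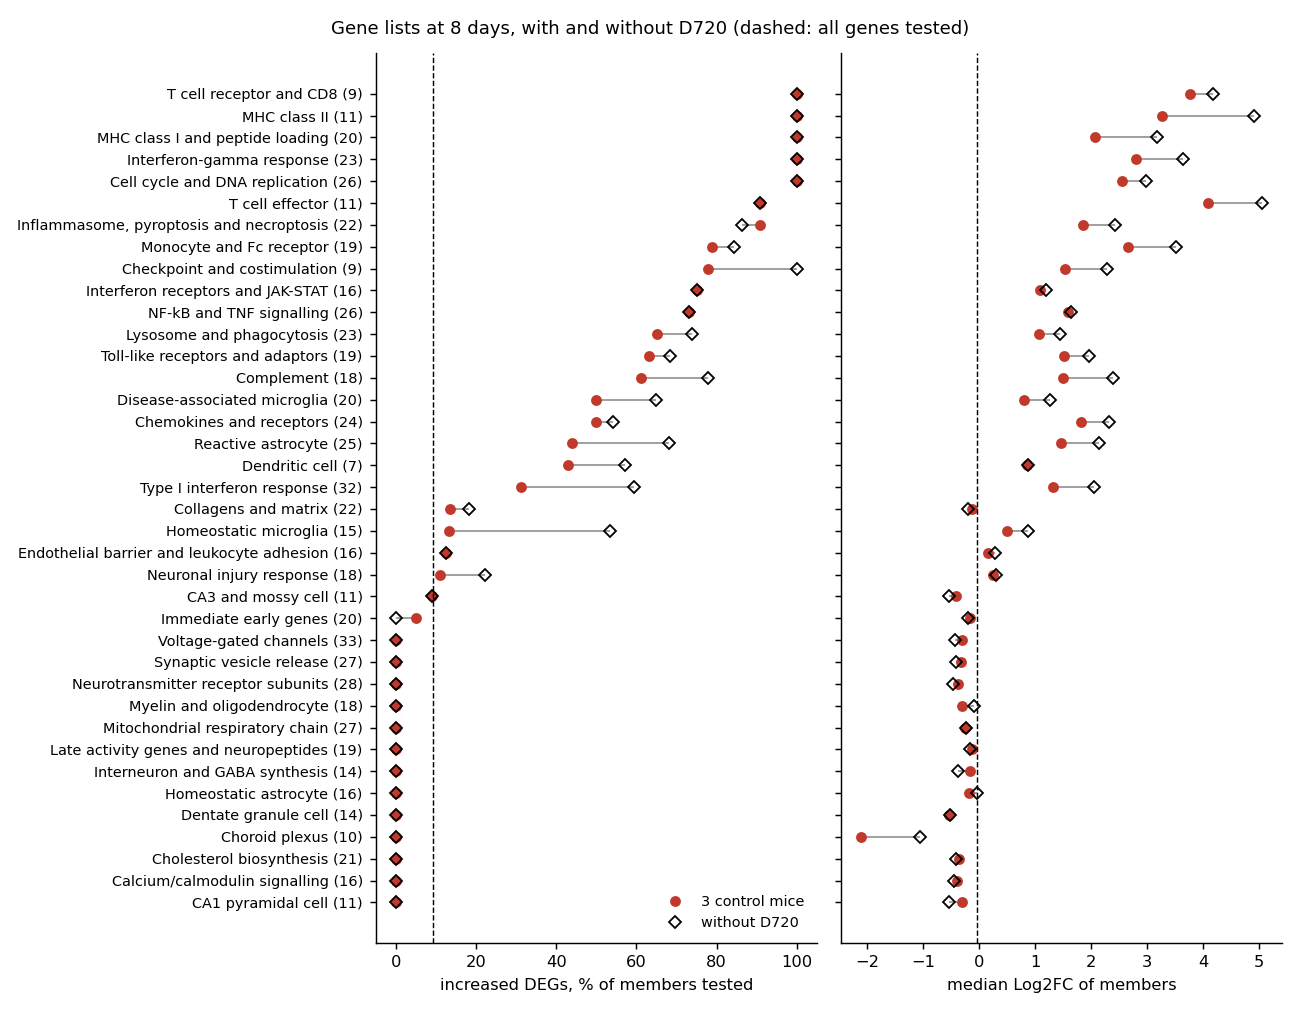
Share of tested members that were increased DEGs (left, percent) and median Log2FC of the members (right) for the 38 gene lists with at least 7 members tested, with all 3 control mice (filled circles) and without D720 (open diamonds). The number tested is in parentheses and the dashed lines mark all genes tested (9.32% and -0.03). The shares for type I interferon, homeostatic microglia and reactive astrocyte genes move with D720. Those of the T cell receptor, T cell effector and cell cycle genes keep their value when D720 alone is left out.

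Because interferon genes moved together, the letters before their start sites were read from RefSeq promoter sequences (GRCm38.p6), on the strand of the gene. STAT dimers bind TTCNNNGAA, and IRF9 and other IRF proteins bind repeats such as GAAA, any 2 bases, GAAA, searched on both strands. In the 250 bases upstream of 32851 listed starts, 7.02% held the former and 2.98% the latter. Among the genes of the interferon-gamma list with a sequence, 9 of 17 held the former and 11 of 17 the latter, and among those of the type I list 3 of 21 and 11 of 21. In the MHC lists the matches were fewer, with 2 and 3 of 17 for class I and peptide loading and 1 and 1 of 8 for class II. Of the increased DEGs with a sequence, 103 of 1108 held the former (9.30%) and 84 the latter (7.58%), compared with 7.06% and 3.25% of all tested genes, and of the 54 decreased DEGs with a sequence 3 and 1 did. These are descriptions of the letters and no binding was measured. Shown for 4 genes whose levels are given here are the last 110 bases before the start, in lower case with the matches in capitals. Irf1 is at chr11:53769904-53770013 and is the first of its listed starts, Igtp is at chr11:58199446-58199555, Gbp2 at chr3:142620553-142620662 and Psmb8 at chr17:34198085-34198194, all on the plus strand.
Irf1: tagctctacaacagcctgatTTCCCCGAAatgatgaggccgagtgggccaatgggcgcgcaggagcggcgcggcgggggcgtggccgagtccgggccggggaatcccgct
Igtp: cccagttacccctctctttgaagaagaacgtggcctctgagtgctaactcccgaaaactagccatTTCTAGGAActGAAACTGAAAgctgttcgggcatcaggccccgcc
Gbp2: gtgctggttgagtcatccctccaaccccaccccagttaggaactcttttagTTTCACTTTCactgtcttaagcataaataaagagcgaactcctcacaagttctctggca
Psmb8: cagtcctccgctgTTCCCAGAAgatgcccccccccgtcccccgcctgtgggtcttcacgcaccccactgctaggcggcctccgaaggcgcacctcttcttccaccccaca

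Igtp, a GTPase of the immunity-related family, held both kinds of match. It was 466, 253, 408 and 400 CPM after rAAV-OVA and 8.10, 266 and 39.7 CPM in the controls (Log2FC 2.81, SE 0.79, FDR 0.0166), and D720 lay above D701. Gbp2, a guanylate-binding protein, held only the repeat, as its reverse complement, and was at 350 CPM or more against 10.9, 335 and 32.9 CPM (Log2FC 3.17, SE 0.79, FDR 0.00761). Psmb8, an immunoproteasome subunit, held only the STAT motif and was at 83.9 to 203 CPM against 4.30, 86.3 and 16.5 CPM (Log2FC 2.50, SE 0.56, FDR 0.00356).

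Chemokines, complement and pattern receptors rose in part. Of 24 chemokine and receptor genes, 12 were increased (13 without D720), among them Ccl5 (Log2FC 3.37), Ccr7 (4.43), Ccr2 (2.86), Cxcl16 (2.68) and Cxcr4 (2.02). Ccl2, which attracts monocytes, was 28.4, 13.3, 24.1 and 28.0 CPM against 0.0835, 13.4 and 0.915 CPM (Log2FC 3.24, SE 0.86, FDR 0.0111). Cx3cl1, the neuronal ligand of the microglial receptor CX3CR1, was lower in every rAAV-OVA mouse, at 438 to 492 CPM against 645 to 746 CPM, and was not called (Log2FC -0.41, FDR 0.0583). In the complement list 11 of 18 were increased and 14 without D720. Cfb, factor B of the alternative pathway, was 477, 122, 197 and 334 CPM against 3.01, 61.2 and 2.15 CPM (Log2FC 4.37, SE 0.87, FDR 0.00146), and C3, the central component, rose by 3.72 (SE 1.08, FDR 0.0189). C4b was 380 to 649 CPM against 39.5, 590 and 145 CPM and was called only without D720 (Log2FC 1.59, FDR 0.0538, and 2.59, FDR 0.00459). The chemokine count was 8 without D700, 8 without D701, 7 without D696 and 2 without D722. The complement count was 6, 5, 7, 5 and 2 without D700, D701, D702, D696 and D722.

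Of 26 genes of NF-kB and TNF signalling, 19 were increased with all controls and 19 without D720, of which 17 were called both times, and all 26 had a positive Log2FC. Tnf itself, a low gene, was 2.17 to 6.50 CPM against 0, 0.717 and 0.119 CPM (Log2FC 4.29, SE 0.91, FDR 0.00244). Its receptor gene Tnfrsf1b was 143, 43.8, 65.0 and 101 CPM against 5.39, 27.8 and 6.92 CPM (Log2FC 2.89, SE 0.56, FDR 0.00119), and Nfkb2, a subunit of the non-canonical pathway, rose by 2.48. Of 19 Toll-like receptors and adaptors 12 were increased (13 without D720), with Tlr8 at Log2FC 3.15 and Tlr2 at 2.54. Of 22 genes of the inflammasome, pyroptosis and necroptosis 20 were increased and 19 without D720, among them Il1b, the cytokine interleukin-1 beta (Log2FC 3.55), Casp4 (2.58), Gsdmd, the pore protein gasdermin D (2.38), and Ripk3, a kinase of necroptosis (2.84). Without D722 these 3 lists held 5, 0 and 4 increased genes. Without D700 and without D696 the Toll-like list held 6 each.

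Myeloid genes split into groups. Of 19 tested monocyte and Fc receptor genes 15 were increased (16 without D720, 10 without D696 and 5 without D722), with a median Log2FC of 2.66. Ly6c2, a marker of inflammatory monocytes, was 134, 30.4, 69.8 and 82.2 CPM against 0.752, 21.6 and 0.995 CPM (Log2FC 4.07, SE 0.74, FDR 7.1e-04). Clec4e and Clec4d, paired C-type lectin receptors of myeloid cells, were among the 15 largest increases (Log2FC 5.11 and 4.73), as were Bst1, the surface enzyme CD157 (4.61), and F10, coagulation factor X (5.12). Lyz2, lysozyme of myeloid cells, varied within the rAAV-OVA group, at 1550, 338, 420 and 1250 CPM against 22.3, 179 and 28.0 CPM (Log2FC 3.54, SE 0.90, FDR 0.00883). Among 23 genes for lysosomes and phagocytosis 15 were increased (17 without D720), with Ctsc (Log2FC 2.56) and Cybb, a subunit of the phagocyte oxidase (3.41), both higher in every rAAV-OVA mouse than in D720. That count was 9, 10, 10 and 2 without D700, D701, D696 and D722.

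Homeostatic microglia genes depended on D720. Of 15 tested, 2 were increased, Csf1r (Log2FC 0.84, FDR 0.0315) and Selplg (1.01, FDR 0.00508), a share of 13.3% against 9.32% of all genes, and 8 were increased without D720 (against 9.84% of all genes). Tmem119, a surface marker of resident microglia, was 66.0 to 89.5 CPM against 23.2, 92.2 and 36.2 CPM, with D720 above every rAAV-OVA mouse. Of the 15 genes 4 had a negative Log2FC. P2ry12 (-0.11), Gpr34 (-0.45) and Slc2a5 (-0.42) were among these, were called in neither fit and stayed negative without D720. Fcrl2, also among these, had the largest decrease among the named decreased DEGs. This gene, listed as Fcrls in older annotation and a marker of resident microglia, was 7.48, 17.6, 13.8 and 8.52 CPM after rAAV-OVA and 31.7, 33.5 and 35.2 CPM in D696, D720 and D722 (Log2FC -1.67, SE 0.28, FDR 4.4e-04, and -1.50 without D720, FDR 0.00167). D720 lay among the controls for Fcrl2 while it lay above every rAAV-OVA mouse for Tmem119. It remained a decreased DEG without each of the 7 mice in turn. Of 20 genes of disease-associated microglia 10 were increased and 13 without D720, among them Cst7, a cystatin (Log2FC 2.68), Lgals3, galectin 3 (2.94), and Itgax, an integrin (2.35). That count was 3, 5, 6, 2 and 0 without D700, D701, D702, D696 and D722, and 1 member was decreased without D701 or D696. Of the 20 genes 5 had a negative Log2FC with all controls. Among these were Spp1 (-0.98, FDR 0.206), lower in every rAAV-OVA mouse than in every control, and Lpl (-0.53, FDR 0.0363). Apoe did not differ (Log2FC 0, FDR 0.995). The increased homeostatic genes numbered 1 without D700, D701, D702 or D696 and 0 without D722.

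Of 25 genes of reactive astrocytes 11 were increased with all controls and 17 without D720. Gfap, the filament protein of astrocytes, was 2110, 1410, 1700 and 1640 CPM after rAAV-OVA and 366, 2410 and 742 CPM in the controls, so that D720 was the highest of the 7 mice (Log2FC 0.78, SE 0.43, FDR 0.201, and 1.51, FDR 0.0266, without D720). Vim, another filament protein, was called in both fits (Log2FC 1.86, FDR 0.0199), as were Cd44, an adhesion receptor (1.97, FDR 0.0154), and Serpina3n, a protease inhibitor (1.38, FDR 0.0316). The count was 6, 5, 4 and 2 without D700, D701, D696 and D722. Of 16 homeostatic astrocyte genes 0 were called in either fit (median Log2FC -0.18). Of 16 genes of the endothelial barrier and leukocyte adhesion 2 were increased, Vcam1 (Log2FC 1.28) and Icam1 (2.18), both ligands of leukocyte integrins, a share of 12.5% against 9.32% of all genes. Of this pair 1 was called without D700, D701 or D702 and 0 without D696 or D722. Of 18 myelin and oligodendrocyte genes 0 were called with all mice, and 6 were decreased without D702, 2 without D696 and 1 without D700. The summed myelin level was uneven within both groups, at 3540 CPM in D701 and 7410 CPM in D702, and at 4270 CPM in D696 and 8520 CPM in D720.

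**Figure D4:**
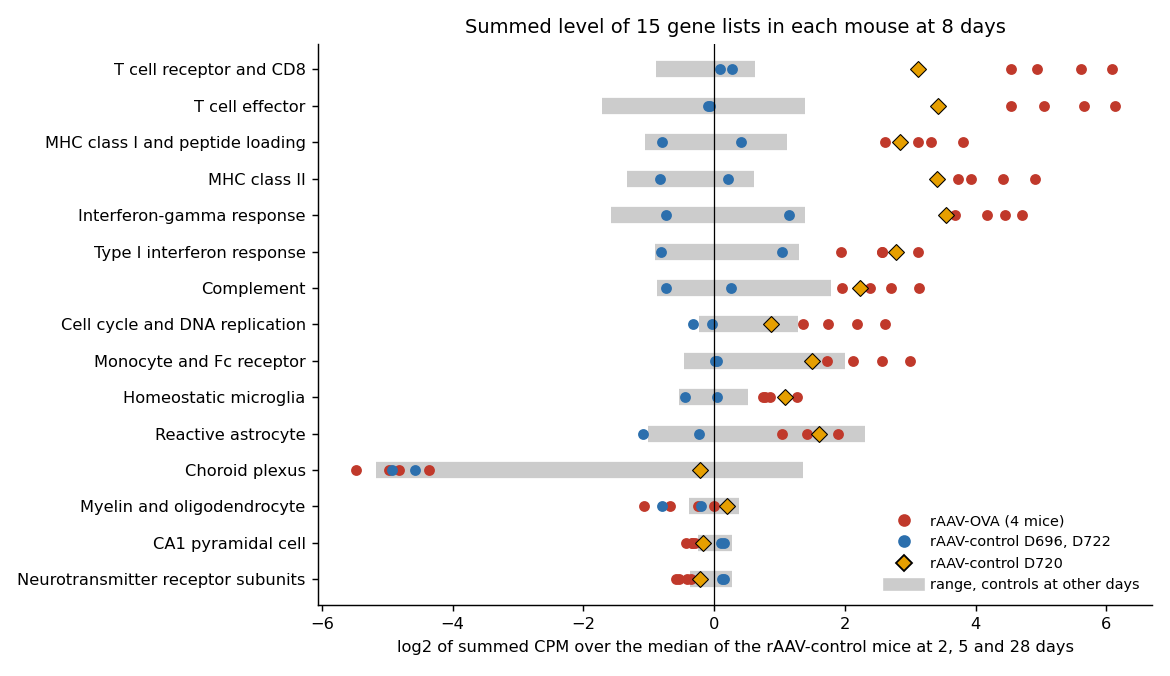
Summed CPM of 15 gene lists in each mouse at 8 d, as log2 over the median of the 12 rAAV-control mice of other days, whose range is the grey bar. D720 lay beyond the other-day controls for the T cell, MHC, interferon, complement and homeostatic microglia lists, and within their range for the cell cycle, monocyte, reactive astrocyte, choroid plexus, myelin, CA1 pyramidal cell and neurotransmitter receptor lists.

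The lists of neuronal genes differed in how many members were lower without overlap, and their counts of decreased DEGs stand against 0.569% of all genes. Of 28 neurotransmitter receptor subunits 0 were called with all controls and 2 were decreased without D720, and 27 had a negative Log2FC (median -0.37). The 4 rAAV-OVA mice lay below all controls for 11 of the 28 (39.3%, against 11.9% of all genes), and for 23 of the 28 without D720 (against 24.1%). The summed level of the list was 4300 to 5020 CPM after rAAV-OVA, below the 6960, 5560 and 7120 CPM of D696, D720 and D722. Gabrb2, a subunit of GABA-A receptors, was 66.2, 74.2, 67.9 and 73.1 CPM after rAAV-OVA against 146, 79.8 and 111 CPM (Log2FC -0.50, FDR 0.0639, and -0.69, FDR 0.0242, without D720). Grin1, the obligatory subunit of NMDA receptors, had a Log2FC of -0.44 (FDR 0.0402). For calcium/calmodulin signalling 10 of 16 genes were lower without overlap and 0 were called, with Calm3, a calmodulin gene, at Log2FC -0.50 (FDR 0.0172). Synaptic vesicle release gave 10 of 27 without overlap and 0 called, and voltage-gated channels 13 of 33 and 1 called. Without D720 the genes lower without overlap numbered 11, 19 and 27 in these 3 lists. Leaving out D701 gave 2 decreased receptor subunits, 1 calcium/calmodulin, 1 vesicle and 2 channel genes, and leaving out D696 gave 1 receptor subunit and 2 calcium/calmodulin genes. Under the other alternatives 0 to 6 receptor subunits, 0 to 5 calcium/calmodulin, 0 to 5 vesicle and 0 to 6 channel genes were decreased.

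The called channel gene was Kcna4, which encodes an A-type potassium channel. It was 14.5, 13.7, 13.2 and 17.1 CPM after rAAV-OVA and 36.8, 22.8 and 39.7 CPM in the controls (Log2FC -0.90, SE 0.28, FDR 0.0259), and without D700, D702, D696 or D722 no gene of that list was called. Kcnv1, a modulatory potassium channel subunit, was 17.3 to 20.1 CPM against 44.0, 26.5 and 37.4 CPM (Log2FC -0.90, SE 0.26, FDR 0.0195). Npy1r, a receptor for neuropeptide Y, was 15, 22.6, 16.8 and 16.6 CPM against 36.5, 27.8 and 35.5 CPM (Log2FC -0.85, SE 0.17, FDR 0.00183). In these 3 genes, named for groups that do not overlap, D720 was the lowest control. The other named decreases were Lamc3, a laminin chain (Log2FC -1.22), Lratd2 (-1.08), the secreted ligand Wnt9a (-0.96), the organic anion transporter Slc22a8 (-0.92), Cd248 of pericytes and fibroblasts (-0.92), 0610009L18Rik (-0.91), the sulfate transporter Slc26a1 (-0.88), Btbd17 (-0.85) and 3 genes without a symbol. For Lamc3 and Cd248 D722 stood far above the other controls (19.8 against 7.48 and 7.13 CPM, and 8.43 against 3.22 and 4.39 CPM). The rAAV-OVA mice, at 3.82 to 6.75 and 2.26 to 3.21 CPM, overlapped the rAAV-control mice of other days (3.99 to 7.05 and 2.33 to 4.93 CPM).

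Of 11 CA1 pyramidal cell markers 0 were called in either fit, 1 was decreased without D701 or D702, and 4 were lower without overlap (5 without D720). Neurod6, a transcription factor of pyramidal cells, was 96.4 to 129 CPM against 152, 158 and 211 CPM (Log2FC -0.74, SE 0.39, FDR 0.184), and Wfs1, a CA1 marker, was 90.2 to 189 CPM against 202 to 251 CPM (Log2FC -0.51, FDR 0.107). The dentate granule cell list held 2 decreased genes of 14, C1ql2, a synaptic organiser (Log2FC -1.07, FDR 0.0483), and Plk5 (-1.07, FDR 0.0205), and 0 without D720, D700 or D722, 1 without D702 or D703 and 4 without D701 or D696. C1ql2 was 31.9, 65.2, 47.9 and 50.6 CPM against 61.9, 110 and 155 CPM, so that D696 lay below D701. In the CA3 and mossy cell list Iyd was decreased (Log2FC -0.75, FDR 0.0474, and FDR 0.0936 without D720), and Csf2rb2, a chain of cytokine receptors that also serves as a mossy cell marker, was increased (Log2FC 3.01, FDR 0.00216). The decreased members of that list numbered 0 without D700, D703, D720 or D722 and 2 without D696, and the increased 0 without D722. Lower without overlap were 18.2% of the CA3 and mossy cell, 14.3% of the dentate and 7.14% of the 14 interneuron genes, against 11.9% of all genes, and 0 interneuron genes were called. Without D720 these were 4 of 11, 2 of 14 and 5 of 14 genes, against 24.1% of all genes. Of 20 immediate early genes 1 was increased (5%, against 9.32% of all genes), Egr2 (Log2FC 1.56, FDR 0.0197, and FDR 0.0557 without D720), of which D700 held 18.6 CPM and the other rAAV-OVA mice 5.08 to 9.34 CPM. That list held 0 increased genes without D700 or D722 and 2 without D696, and 7 of its 20 genes (35%, against 11.9% of all genes) were lower without overlap. Of 19 late activity and neuropeptide genes 7 (36.8%) were lower without overlap and 0 were called with all controls. Without D720 the immediate early list gave 9 and the late activity list 8 such genes. Egr1, another zinc finger factor, was 55.3 to 134 CPM against 194, 187 and 138 CPM and was not called (Log2FC -0.67, FDR 0.14). Bdnf, a neurotrophin, was 18.6 to 23.7 CPM against 33.5, 34.6 and 48.7 CPM and was called only without D720 (Log2FC -0.69, FDR 0.0624, and -0.88, FDR 0.0311).

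D720 itself was described gene by gene against D696 and D722, with no test. The 10 genes most raised in D720 were Lcn2, Ttr, Tgm1, Cst7, Mfrp, Saa3, Gm5641, Cd74, H2-Aa and Cfb. Lcn2, lipocalin 2, was 68.7 CPM in D720 and 1.29 and 0.477 CPM in the other controls, and 77.5 to 154 CPM after rAAV-OVA. Ttr, transthyretin of the choroid plexus, was 1240 CPM in D720, 36 and 13.8 CPM in the other controls and 15.3 to 51.9 CPM after rAAV-OVA, whereas the rAAV-control mice of other days ran from 19.4 to 3940 CPM. The 10 choroid plexus genes summed to 1460 CPM in D720 and to 38.2 to 82.5 CPM in the other 6 mice, but the rAAV-control mice of other days ran from 47 to 4380 CPM with a median of 1700 CPM. D720 thus lay within their range for choroid plexus genes, whereas its MHC and interferon sums lay above it. Whether the former bear on the latter was not tested. T cell receptor and CD8 genes summed to 128 CPM in D720, 15.8 CPM in D696, 17.8 CPM in D722 and at least 343 CPM in the rAAV-OVA mice. Rag1 was 4.72 to 6.56 CPM in all 7 mice, a gene level that does not read the mutant allele.

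Leaving D720 out added 216 increased and 79 decreased DEGs and removed 135 and 31. The 10 added genes of lowest FDR were Sumf1, Epha2, Gna13, Sall1, Fndc10, Thnsl1, Plekha4, Lgmn, Parp11 and Mtus1, of which Fndc10 and Thnsl1 were decreased. Sall1, a transcription factor of microglial identity, was 57.8, 46.4, 47.7 and 47.9 CPM after rAAV-OVA and 25.7, 48.8 and 27.8 CPM in the controls (Log2FC 0.61, FDR 0.0229, and 0.92, FDR 0.00167, without D720). Lgmn, a lysosomal protease, was 228 to 380 CPM against 105, 332 and 126 CPM (Log2FC 0.66, FDR 0.073, and 1.20, FDR 0.00208). In both genes D720 was inside the rAAV-OVA range and the other controls were below it. The 10 of lowest FDR among the genes lost were Dnmt1, Lrrfip1, Riox2, Clcn7, Heatr1, Exosc8, Atad2b, Ppp1r1a, Hdac1 and Eed. Dnmt1, the maintenance DNA methyltransferase, was 82.3, 53.2, 57.7 and 73.5 CPM against 48.3, 39.8 and 39.1 CPM, and its Log2FC went from 0.72 to 0.63 with FDR 0.00577. These 10, picked for a low FDR, kept an FDR under the limit, and their absolute Log2FC without D720, 0.55 to 0.66 after rounding, was under the size limit.

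The response at 8 d was compared with that at 5 d, where 4 rAAV-OVA and 4 rAAV-control mice of the same batch were sequenced, by testing the difference of both Log2FC values. It differed for 28 genes (0.179% of genes tested), of which 19 had a lower (0.121%) and 9 a higher Log2FC at 8 d (0.0575%). All 28 were DEGs at 5 d and 1 of them, H1f4, was a DEG at 8 d with all controls (Log2FC 0.75, FDR 0.0374) but not without D720 (FDR 0.0521). Inhba, a subunit of activin, was 76.8, 60.6, 53.6 and 126 CPM after rAAV-OVA at 5 d and 5.38 to 10.4 CPM in the controls of that day, and at 8 d it was 5.95 to 10.2 CPM after rAAV-OVA and 4.47 to 9.07 CPM in controls (difference of Log2FC -3.17, SE 0.58, FDR 0.0215). Nptx2, a synaptic pentraxin, was 131 to 259 CPM after rAAV-OVA at 5 d and 17 to 45 CPM at 8 d, when the controls held 20.1 to 50 CPM (difference -2.26, SE 0.40, FDR 0.0176). For both genes the groups overlapped at 8 d. The difference was also negative for Pmepa1 (-1.26), Cdk18 (-1.56), Skil (-0.78), Trib2 (-1.47), Fosl2 (-1.23), Dok5 (-1.26) and Chga (-1.37). H1f4, a linker histone, was 0.814 to 1.57 CPM after rAAV-OVA at 5 d against 1.92 to 3.08 CPM, and 4.23 to 4.83 CPM at 8 d against 1.84 to 2.82 CPM (difference 2.02, SE 0.34, FDR 0.014). Without D720 the count was 9, without D700 8, without D702 10, without D703 9 and without D696 16. Inhba, Nptx2 and Dok5 then had an FDR of 0.0501 without D720.

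**Figure D5:**
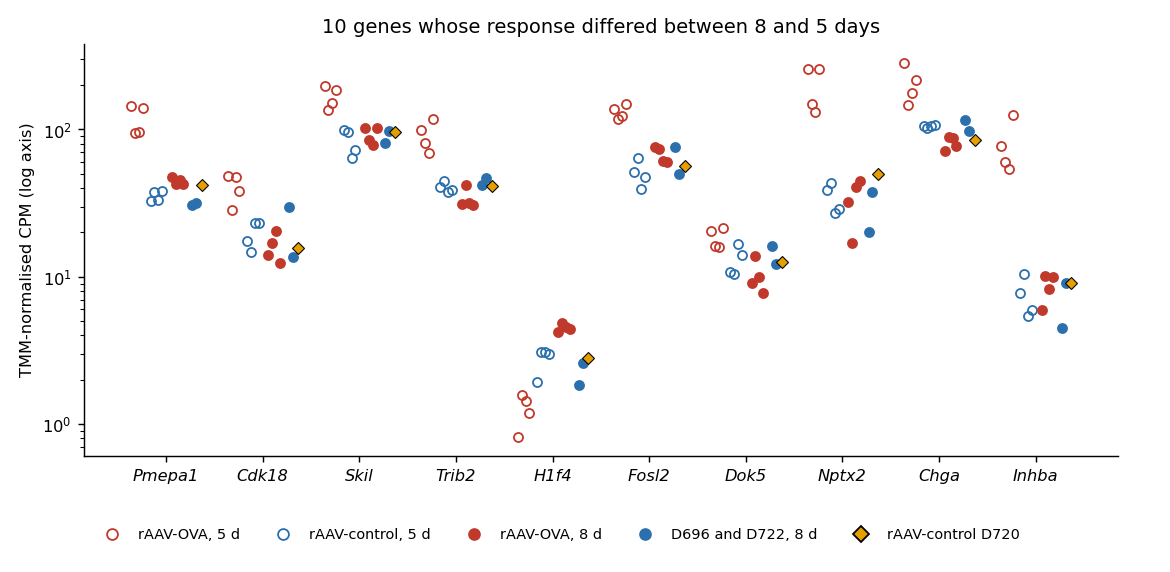
TMM-normalised CPM (log axis) in each mouse at 5 d (open circles) and 8 d (filled circles, D720 as a diamond) for the 10 genes of lowest FDR in the test of the difference between the 8 d and 5 d responses. For Inhba the rAAV-OVA mice held 53.6 to 126 CPM at 5 d and 5.95 to 10.2 CPM at 8 d.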

How the data were processed

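The authors assigned reads to GENCODE M29 transcripts with Salmon 1.8.0, summed them to genes with tximeta, and deposited estimated counts per mouse without normalization. Genes had to reach 15 counts in 15 or more of the 31 mice to be kept. Both deposited tables hold the same 15648 genes, 0 cells differ between them, and 824 genes have no symbol.

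Counts were tested with edgeR 4.0.16 in R 4.3.3 (TMM, robust dispersions, quasi-likelihood F-test) in 1 model of all 31 mice with 8 groups and 2 surrogate variables from sva 3.50.0. FDR is by Benjamini-Hochberg over all genes. The same steps were also run on simulated counts. Those held no outlying control such as D720 and no hidden factor, so that run does not bear on how the calls here move with single mice. Groups come from the labels. Counting error and the spread between mice both enter the model.

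The 44 gene lists, the members and the tests were chosen with earlier results of these data known. Named genes are the 15 largest increases and decreases among DEGs that did not overlap, held without D720 and averaged at least 1 CPM, the 10 lowest FDR, the 10 lowest FDR called only with or only without D720, the 10 highest in D720 over the other controls at 5 CPM or more, the 10 lowest FDR against 5 d, and list members. List symbols were matched by name, and 3 by gene ID. Gene coordinates on the authors' build are not given. RefSeq promoters (GRCm38.p6) served for sequences only. Alternatives were DESeq2 1.42.0 (the authors used DESeq2 1.36.0), limma 3.58.1 voom, other covariates, filters and sets of mice. Some genes that the rule names are not reported here.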

Additional observations from a re-analysis of the deposited data

Results flagged for a closer look

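Among 167 genes examined at 8 d, 2 had 1 rAAV-OVA mouse far from the other 3, and chance alone flags about 1 in 20 such groups. In both it was D700, with Epha2 at 3.86 CPM (the other rAAV-OVA mice 3.25 to 3.35 CPM) and Sall1 at 57.8 CPM (46.4 to 47.9 CPM).

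The response differed between 8 and 5 d by the test of the difference for 28 genes. The 10 of lowest FDR differed in Log2FC by -1.26 for Pmepa1, -1.56 for Cdk18, -0.78 for Skil, -1.47 for Trib2, 2.02 for H1f4, -1.23 for Fosl2, -1.26 for Dok5, -2.26 for Nptx2, -1.37 for Chga and -3.17 for Inhba.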

How the results depend on the processing

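At 8 d 1548 genes (9.89% of those tested) were DEGs. The number was 0 (0%) from the 7 mice alone (edgeR, 4733 genes at an unadjusted p under 0.05), 477 (3.05%) from the 23 mice of batch 1, 797 increased and 47 decreased of 13779 tested (6.13%) with at least 15 counts in every mouse, and 2838 (18.1%) without a limit on Log2FC. Leaving out 1 mouse gave 422 to 1677 (2.7% to 10.7%), the lowest without D722. The other alternatives gave 1256 to 2117. The share of increased genes among the calls was 86.5% to 94.4% under all alternatives with calls other than those leaving out 1 mouse, which gave 89.1% to 97.2%, and other than 76% without a limit on Log2FC. The number of genes that differed from 5 d was 28. It was 63 with DESeq2's Wald test, 15 without surrogate variables, 18 with the batch label in their place, and, as alternatives chosen after seeing the data, 18 with surrogate variables from unscaled counts and 0 without both D720 and surrogate variables (lowest FDR 0.0572, edgeR, 1010 genes at an unadjusted p under 0.05). Leaving out 1 mouse gave 8 to 23. The causes were not tested. For the named genes, 2 of 1239 values that leave out 1 mouse changed sign, Ifit1 (-0.14 to 1.42 over the 7 mice left out) and Ifit3 (-0.06 to 1.70), both lowest without D696, and 250 lost and 22 gained a call. Of 2758 values under other alternatives 452 lost and 63 gained a call, and 0 changed sign. No paired analysis was possible because each mouse belongs to 1 group only and the replicate numbers follow the order of the samples. Mice of 1 group differed by 18.8 to 103 times counting noise (chi-square per degree of freedom over genes), and the groups held 4 and 3 mice. The effect of depth was not tested.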

Other observations

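Other cell types and pathways were less clear. Of 3 tested neutrophil genes 0 were called with all controls, with S100a8 at 0.609 to 2.56 CPM after rAAV-OVA and 0.125 to 0.199 CPM in controls (Log2FC 2.37, FDR 0.192), and 1 was increased without D720. Of 3 B cell genes Ighm, the heavy chain of IgM, was increased, at 82.6, 40.8, 46.6 and 59.8 CPM against 7.77, 37.6 and 16.4 CPM (Log2FC 1.50, SE 0.39, FDR 0.0102), although the genotype allows no mature B cells. That list held 3 increased genes without D720 and 0 without D722. Of 2 NK cell genes 1 was increased, and 0 without D722. Of 7 dendritic cell genes 3 were increased (4 without D720), among them Batf3 (Log2FC 1.40). Of 5 erythrocyte genes and of 10 choroid plexus genes 0 were called, nor were any of 4 sex-linked genes. All 10 choroid plexus genes had a negative Log2FC (median -2.11, and -1.05 without D720).

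Of 18 neuronal injury genes 2 were increased (11.1%, against 9.32% of all genes), Atf3, a stress-induced transcription factor (Log2FC 2.20, FDR 0.00164), and Hmox1, heme oxygenase 1 (1.78, FDR 0.0316), and 4 without D720, 1 without D700, D702 or D696 and 0 without D722. Of 22 collagen and matrix genes 3 were increased (13.6%), among them Mmp14 (Log2FC 1.07) and Mmp19 (1.33), and 4 without D720, 1 without D701 and 0 without D700, D696 or D722. Of 21 cholesterol genes 2 were decreased with all controls (9.52%, against 0.569% of all genes) and 2 without D720. Insig1, which holds back the sterol sensor, was 44.1, 44.3, 41.5 and 38.1 CPM against 81.6, 52.8 and 79.4 CPM (Log2FC -0.76, SE 0.16, FDR 0.00198). The count was 1 without D700, D702 or D703 and 0 without D696 or D722, and 0 to 9 under the other alternatives. All 27 mitochondrial respiratory chain genes had a negative Log2FC (median -0.25) and 0 were called.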
